A study of Homo sapiens with 24 samples.

Results

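The Aurora and Polo-like kinase genes were followed as 9 rows of the deposited count tables, chosen by gene name out of 57820: the Aurora kinases AURKA, AURKB and AURKC, the Aurora A cofactors TPX2 and BORA, and the Polo-like kinases PLK1, PLK2, PLK3 and PLK4. All 9 passed the filter on low counts in every comparison. They were counted in 24 RNA-seq libraries of a human osteosarcoma line, 3 biological replicates in each of 8 groups.

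WT and ID3-KO cells were compared with and without mocetinostat, an inhibitor of class I histone deacetylases (HDACs), the enzymes that take acetyl groups off histones. In AID-DIvA cells, U2OS cells that carry the AsiSI restriction enzyme, the treated group (WT or ID3-KO) was exposed for 24 h and then kept for 24 h in drug-free medium. In cells labelled U2OS, the treated group (WT or ID3-KO) was exposed for 24 h and collected without recovery. The library names of these cells also carry the prefix DivA, which their cell line label lacks, so whether they differ from the AID-DIvA line in more than the label is not settled here, and recovery and cell line label cannot be told apart. The untreated WT and untreated ID3-KO cells of each line were the controls. No dose of mocetinostat is stated for the sequenced cells, nor whether an ID3-KO line was 1 clone or a pool, and the sources used here do not say that AsiSI was induced in them. In all 12 AID-DIvA libraries the sample title and the treatment label contradict each other. The titles were followed here. Read by the treatment label instead, every AID-DIvA treatment difference and KO minus WT response difference below would change sign, the untreated and recovered genotype comparisons would change places, and the differences between the lines would take other values.

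Aurora A acts at centrosomes and spindle poles. TPX2 activates it on the spindle, and BORA enables it to switch on PLK1 as cells enter mitosis. Aurora B is the kinase of the chromosomal passenger complex, which corrects chromosome attachment and drives cytokinesis, and Aurora C is its close paralogue, best known from germ cells. PLK4 starts centriole duplication, whereas PLK2 and PLK3 are better known from stress responses and interphase. Transcripts of AURKA, AURKB, TPX2, BORA and PLK1 are known to peak late in the cell cycle.

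The libraries held 37878751 to 76906266 counts in AID-DIvA cells and 46285533 to 70692114 in U2OS cells, and mitochondrial genes took 6.48% to 9.47% and 5.59% to 6.87% of them. The library of untreated U2OS WT replicate 1 stood apart from its group: across genes it differed from replicates 2 and 3 by a root mean square of 0.404 and 0.406 on the log2 scale, against 0.113 to 0.282 for every other pair of replicates. Counts of calls that rest on it are given with and without it, and so are the member values of the U2OS WT treatment comparison. In the other comparisons that use it, most member values are given with all libraries only. ID3, the gene targeted in the knockouts, was lower in KO than in WT libraries without overlap in all 4 matched settings but was still counted, at 34.7 ± 3.61 CPM (counts scaled to a common library total, mean ± SD, n = 3) in untreated AID-DIvA KO cells against 50.4 ± 2.20 in WT. After treatment and recovery ID3 was higher in both, at 64.8 ± 3.22 CPM in KO and 119 ± 14.2 in WT cells. In U2OS cells the treated and untreated libraries overlapped in ID3 in both genotypes. Of the osteoblast markers, RUNX2 (11.8 to 47.9 CPM), COL1A1 (824 to 2530 CPM) and SPP1 (15.0 to 61.0 CPM) were present, ALPL was low (0.618 to 6.95 CPM), BGLAP (at most 0.689 CPM), SP7 (at most 0.114 CPM) and IBSP (at most 0.403 CPM) were near 0 and COL1A2 reached 1.37 CPM. PTPRC, a blood marker, was at most 0.407 CPM, and EPCAM, an epithelial marker, lay between 4.42 and 10.4 CPM.

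Upstream sequence was matched for 7 of the 9 genes from RefSeq promoter windows of 250 bases before to 50 bases after a start site (GRCh38.p14, 10 windows). AURKA and TPX2 are named only. The stretches below run 5′ to 3′ on the strand of the gene and end at the base before the start site. They are shown because PLK1 and BORA were among the members that fell most, whereas AURKC and PLK3 were the members that rose. Since they were picked by their changes, they cannot show whether a motif goes with a fall. Capitals mark matches, on either strand, to TTTGAA or TTCGAA (the cell cycle homology region, CHR, of late cell cycle promoters, and a variant of it) and to CCAAT. The stretches are chr16:23678809-23678888 (plus strand) for PLK1, chr13:72727740-72727922 (plus strand) for BORA, chr19:57230943-57231022 (plus strand) for AURKC and chr1:44800297-44800376 (plus strand) for PLK3.
PLK1: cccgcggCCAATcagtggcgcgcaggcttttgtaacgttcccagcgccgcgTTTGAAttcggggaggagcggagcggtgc
BORA: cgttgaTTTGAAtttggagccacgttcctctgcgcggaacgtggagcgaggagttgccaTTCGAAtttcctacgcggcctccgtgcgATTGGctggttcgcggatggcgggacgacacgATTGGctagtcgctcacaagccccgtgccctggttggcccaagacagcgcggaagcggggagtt
AURKC: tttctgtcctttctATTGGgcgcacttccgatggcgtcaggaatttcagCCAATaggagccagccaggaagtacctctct
PLK3: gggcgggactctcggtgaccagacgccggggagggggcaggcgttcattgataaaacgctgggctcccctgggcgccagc

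PLK1 held TTTGAA from -29 to -24 and CCAAT from -73 to -69, counted from the start site. BORA held TTTGAA from -177 to -172, TTCGAA from -124 to -119, and CCAAT on the opposite strand from -96 to -92 and from -64 to -60. AURKC held CCAAT on both strands and neither CHR form, and the PLK3 stretch held none of the 3. Of 35116 promoter windows, 15.2% held TTTGAA, 1.45% TTCGAA and 34.6% CCAAT, against 3, 1 and 6 of the 10 windows of the members. These 10 are not independent, since PLK4 has 3 windows and the 2 AURKB windows overlap and share 1 CCAAT. Among the other windows, PLK4 had TTTGAA on the opposite strand from 39 to 44 in 1 of its windows and CCAAT in another, and both AURKB windows held CCAAT. Neither CHR form was in the AURKB or PLK2 windows or before the start site in PLK4. Yet AURKB and PLK4 fell in all 4 treatment comparisons, and PLK2 in all but AID-DIvA WT cells. The E-box CANNTG, the letters bound by the E proteins that ID proteins sequester, was in 4 member windows and in 68.7% of all, TTGGCGC (an E2F site) was in 1 and 3.04%, and TTCCCGC (an E2F site) was in 1 and 6.55%. These matches describe letters in a window only.

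Compared per length, as CPM per kilobase of exon (RPKM), untreated AID-DIvA WT cells held most TPX2 (149 ± 2.07 RPKM, mean ± SD, n = 3), followed by AURKA (90.5 ± 1.37 RPKM), PLK1 (50.4 ± 1.03 RPKM), AURKB (32.4 ± 0.840 RPKM), PLK2 (24.2 ± 1.23 RPKM), PLK4 (16.4 ± 0.223 RPKM), BORA (14.9 ± 0.308 RPKM), AURKC (7.65 ± 0.0845 RPKM) and PLK3 (4.60 ± 0.0478 RPKM). The spindle genes thus stood at the top and the germ line paralogue and PLK3 at the bottom of the scale. AURKB and AURKC are similar in sequence, so fragments between them could be split by the counting.

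**Figure D1:**
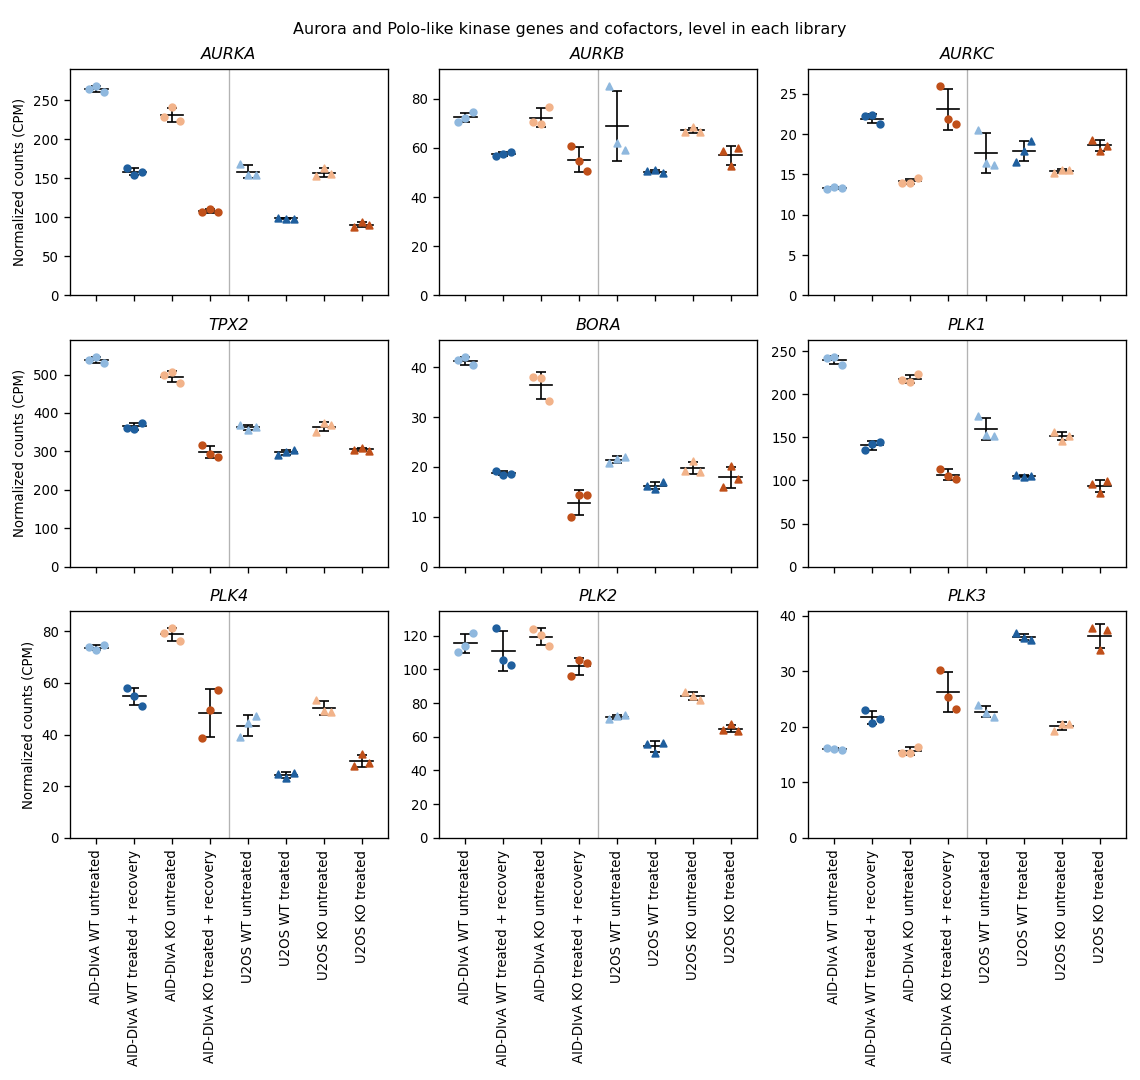
Level of each of the 9 genes in normalized counts (CPM, y axis from 0) in every library, by group (x axis). Points are the 3 libraries of a group, with the mean as a line and the SD as a bar, circles for AID-DIvA and triangles for U2OS cells. AURKA, TPX2, BORA and PLK1 are highest in untreated AID-DIvA cells, whereas AURKC and PLK3 are higher in treated than in untreated AID-DIvA cells.

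The question put to each cell line was how mocetinostat changed the transcriptome of WT and of ID3-KO cells. In AID-DIvA KO cells after recovery, all 9 genes differed from untreated cells at an adjusted p below 0.05 by edgeR's quasi-likelihood test, with 7 lower and 2 higher, where 19.9% and 20.2% of the 20362 genes tested were lower and higher and 40.1% differed in either direction. BORA, AURKA and PLK1 fell by more than 1 on the log2 scale, a fall that 2.56% of all genes showed. The median of the 9 log2 fold changes was -0.70, against -0.02 over all genes tested. In AID-DIvA WT cells, 6 fell and 2 rose (background 23.0% and 23.9%, and 46.9% in either direction), with a median of -0.42 against -0.0005 over all genes, and only BORA fell by more than 1, as 2.52% of all genes did. No member rose by more than 1 in either genotype, as 4.9% of all genes did in KO and 4.86% in WT cells. In these bulk libraries, fewer cells in late cell cycle phases and less RNA per cell cannot be told apart.

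Before recovery, in U2OS KO cells, 6 of the 9 fell and 2 rose, where 34.0% of all genes tested fell and 35.8% rose, or 69.9% together. In U2OS WT cells 7 fell and 1 rose, against 22.9% and 26.0% of all genes and 48.9% together. The member medians were -0.25 and -0.40 on the log2 scale, against 0.0009 and 0.0058 over all genes, and no member changed by more than 1, where 5.77% of all genes fell and 14.6% rose by more than that in KO and 5.06% and 13.6% in WT cells. Without the library that stood apart, all 9 members were called in U2OS WT cells, 7 lower and 2 higher, where 32.5% of all genes were lower and 33.9% higher, 66.4% together.

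AURKA (chromosome 20, 54944445 to 54967393, minus strand, hg19 as all gene positions here) fell in all 4 treatment comparisons. The treated AID-DIvA KO libraries held 106, 110 and 106 CPM and the untreated ones 229, 242 and 223. The treated WT libraries held 163, 155 and 158 CPM against 265, 269 and 261. No treated library of either genotype reached the lowest untreated one. The fold change was -1.10 ± 0.06 (log2 ± SE, adjusted p = 1e-06) in KO and -0.73 ± 0.04 (adjusted p = 1e-08) in WT, so that the level fell by 53.4% and fell by 39.8%.

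In U2OS cells AURKA went from 153, 163 and 155 to 87.7, 93.6 and 89.99 CPM in KO, a change of -0.79 ± 0.04 (adjusted p = 3e-13). In WT it went from 168, 154 and 154 to 99.6, 97.7 and 98.1 CPM, a change of -0.68 ± 0.07 (adjusted p = 0.00017), or -0.64 ± 0.04 without untreated replicate 1. Over the 8 groups AURKA was highest in untreated AID-DIvA WT and lowest in treated U2OS KO cells, and the groups in the middle of the order, untreated U2OS WT, recovered AID-DIvA WT and untreated U2OS KO, overlapped.

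TPX2 (chromosome 20, 30327074 to 30389608, plus strand), the Aurora A activator of the spindle, had smaller falls than AURKA by value. AID-DIvA KO libraries went from 499, 507 and 479 to 316, 293 and 285 CPM, and WT libraries from 539, 546 and 531 to 362, 359 and 375. The groups did not overlap in either genotype. The changes were -0.73 ± 0.05 (adjusted p = 6.2e-06) in KO and -0.55 ± 0.04 (adjusted p = 8.8e-08) in WT. In U2OS cells they were -0.25 ± 0.04 in KO (adjusted p = 1.6e-05, 364 ± 11.7 to 305 ± 3.56 CPM, mean ± SD, n = 3) and -0.28 ± 0.07 in WT (adjusted p = 0.010, 363 ± 7.12 to 297 ± 6.29 CPM). The U2OS WT call was lost without treated replicate 1 (adjusted p = 0.063) or 2 (0.054), and the change was -0.26 ± 0.03 without untreated replicate 1. In the order of the 8 groups, the 3 lowest, treated U2OS KO, recovered AID-DIvA KO and treated U2OS WT, overlapped one after the other.

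BORA (chromosome 13, 73302061 to 73330336, plus strand), the cofactor through which Aurora A activates PLK1, had the largest fall of the members after recovery. Its AID-DIvA KO libraries went from 37.98, 37.8 and 33.2 to 9.86, 14.3 and 14.3 CPM, and its WT libraries from 41.4, 42.1 and 40.4 to 19.2, 18.4 and 18.5. Every recovered library lay below every untreated one, and KO replicate 1, the shallowest library of all, was the lowest. The changes were -1.49 ± 0.14 (adjusted p = 3.5e-05) in KO and -1.13 ± 0.05 (adjusted p = 2.1e-09) in WT. Without KO replicate 1, and over every other library left out, the KO change stayed between -1.58 and -1.32. Ranked from the largest fall, BORA stood at 145 of 20362 genes in KO and at 370 of 20289 in WT.

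Without recovery the BORA values were closer together. In U2OS KO cells 19.2, 21.2 and 19.0 CPM were followed by 15.9, 20.1 and 17.6, which overlapped, and the change of -0.15 ± 0.07 did not pass the test (adjusted p = 0.078). In U2OS WT cells 20.7, 21.7 and 22.0 CPM went to 16.3, 15.5 and 17.0, which did not overlap, and the change was -0.39 ± 0.07 (adjusted p = 0.0031), or -0.42 ± 0.06 without untreated replicate 1. The KO result passed with the replicate number as a block (0.024), with no filter on low counts (0.033) and without treated replicate 2 (-0.23, adjusted p = 0.0017). BORA overlaps DIS3, on the opposite strand, at 1427 to 3680 counts per library. Counted on the reverse strand alone BORA had 102% to 109% of its count from either strand, and no BORA call changed. Untreated AID-DIvA cells held most BORA, the other groups overlapped as neighbours down to treated U2OS WT cells, and recovered AID-DIvA KO cells were lowest and apart.

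AURKB (chromosome 17, 8108056 to 8113918, minus strand), the chromosomal passenger kinase, fell by smaller amounts. AID-DIvA KO libraries went from 70.6, 69.8 and 76.9 to 60.7, 54.5 and 50.4 CPM, and WT libraries from 70.7, 72.4 and 74.5 to 56.7, 57.5 and 58.4. Treated and untreated libraries did not overlap. The changes were -0.39 ± 0.08 (adjusted p = 0.0027) in KO and -0.32 ± 0.04 (adjusted p = 4.5e-05) in WT.

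In U2OS KO cells AURKB fell by 0.23 ± 0.05 on the log2 scale (adjusted p = 0.00036, 67.2 ± 1.19 to 57.0 ± 3.94 CPM). This call was lost with all 4 U2OS groups in 1 fit (adjusted p = 0.091). In U2OS WT cells the untreated libraries held 85.4, 62.2 and 59.2 CPM, with replicate 1 far above the others, and the treated ones 50.6, 50.9 and 49.6. The change was -0.44 ± 0.14 (adjusted p = 0.032) and shrank to -0.26 ± 0.04 (adjusted p = 2.6e-07) without untreated replicate 1, while leaving out any 1 treated library brought the adjusted p to 0.092, 0.092 or 0.11. The 4 untreated groups overlapped as neighbours in the order of AURKB levels, and so did the 4 treated ones.

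AURKC (chromosome 19, 57742377 to 57746916, plus strand), the germ line paralogue, moved the other way. AID-DIvA KO libraries went from 14.0, 13.9 and 14.5 to 26.0, 21.9 and 21.3 CPM, and WT libraries from 13.2, 13.4 and 13.4 to 22.2, 22.4 and 21.2. All recovered libraries lay above all untreated ones. The rises were 0.70 ± 0.08 (adjusted p = 0.00012) in KO and 0.73 ± 0.06 (adjusted p = 3.2e-07) in WT, or 1.63-fold and 1.66-fold.

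In U2OS KO cells AURKC rose by 0.28 ± 0.06 (adjusted p = 0.00022), from 15.2, 15.5 and 15.5 to 19.3, 17.9 and 18.6 CPM. In U2OS WT cells the untreated libraries held 20.6, 16.4 and 16.2 CPM and the treated ones 16.6, 17.9 and 19.2. They overlapped, and the difference of 0.03 ± 0.12 did not pass the test (adjusted p = 0.88). Without untreated replicate 1, the highest of these 6, it was 0.15 ± 0.06 (adjusted p = 0.042). Recovered AID-DIvA cells of both genotypes overlapped at the top of the order, above all U2OS groups, and untreated AID-DIvA WT cells were lowest.

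PLK1 (chromosome 16, 23688977 to 23701688, plus strand), whose kinase drives mitotic entry, spindle assembly and cytokinesis, fell in all 4 comparisons. AID-DIvA KO libraries went from 217, 214 and 223 to 114, 105 and 101 CPM, and WT libraries from 242, 243 and 234 to 135, 142 and 145. The groups were far apart in both genotypes. The changes were -1.03 ± 0.06 (adjusted p = 1.2e-06) in KO and -0.76 ± 0.04 (adjusted p = 1.3e-08) in WT.

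PLK1 also fell before recovery, by 0.69 ± 0.05 on the log2 scale in U2OS KO (adjusted p = 3.4e-11, 151 ± 4.82 to 93.3 ± 6.96 CPM) and by 0.59 ± 0.08 in U2OS WT cells (adjusted p = 0.00065, 159 ± 12.8 to 105 ± 0.959 CPM). Without untreated replicate 1 the WT change was -0.53 ± 0.03. Of the group order, untreated U2OS WT overlapped with untreated U2OS KO, and recovered AID-DIvA KO with treated U2OS WT cells, whereas the other neighbours were apart. Opposite-strand neighbours that overlap PLK1, CTD-2196E14.5 and ERN2, had at most 33 and 16 counts per library.

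PLK4 (chromosome 4, 128802016 to 128820350, plus strand), the centriole kinase, fell in all 4 comparisons as well. AID-DIvA KO libraries went from 79.2, 81.2 and 76.3 to 38.8, 49.4 and 57.1 CPM, and WT libraries from 73.8, 72.6 and 74.6 to 58.0, 55.1 and 51.2. Recovered KO libraries were widely spread but below all untreated ones. The changes were -0.70 ± 0.13 (adjusted p = 0.0021) in KO, between -0.82 and -0.55 over the libraries left out in turn, and -0.42 ± 0.05 (adjusted p = 1.7e-05) in WT.

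Unlike BORA and TPX2, PLK4 had its largest fall in the U2OS WT comparison. U2OS WT libraries went from 39.1, 44.4 and 47.1 to 24.8, 23.2 and 25.2 CPM and KO libraries from 53.6, 49.2 and 48.6 to 28.0, 32.6 and 28.98. Treated and untreated libraries did not overlap. The changes were -0.82 ± 0.09 (adjusted p = 0.00018) in WT, or -0.89 ± 0.05 without untreated replicate 1, and -0.75 ± 0.06 (adjusted p = 7e-11) in KO. In the order of levels, recovered AID-DIvA WT, untreated U2OS KO, recovered AID-DIvA KO and untreated U2OS WT cells overlapped one after the other. The small RNA gene RNU6-583P within PLK4 had at most 7 counts.

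PLK2 (chromosome 5, 57749809 to 57756087, minus strand) differed least in AID-DIvA cells. KO libraries went from 124, 120 and 114 to 96.3, 106 and 104 CPM, without overlap, a change of -0.22 ± 0.07 (adjusted p = 0.027) that was lost without untreated KO replicate 1 (adjusted p = 0.13) or 2 (0.076) and with the replicate block (0.072). WT libraries held 110, 114 and 122 CPM untreated and 124, 105 and 102 CPM after recovery. They overlapped, and the difference of -0.05 ± 0.07 did not pass the test (adjusted p = 0.56), but reached -0.14 (adjusted p = 0.0018) without recovered WT replicate 1. In U2OS cells PLK2 fell in KO (84.2 ± 2.39 to 64.9 ± 2.25 CPM, log2 change -0.37 ± 0.05, adjusted p = 1.7e-07) and in WT (72.0 ± 1.16 to 54.3 ± 3.49 CPM, -0.40 ± 0.07, adjusted p = 0.0030, and -0.41 without untreated replicate 1). All 4 AID-DIvA groups lay above all 4 U2OS groups in PLK2, neighbours in the order overlapping among the former and apart among the latter.

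PLK3 (chromosome 1, 45265897 to 45271662, plus strand), the other stress-related kinase, was the member that rose in all 4 comparisons. AID-DIvA KO libraries went from 15.2, 15.3 and 16.4 to 30.2, 25.4 and 23.2 CPM, and WT libraries from 16.1, 16.1 and 15.8 to 23.0, 20.7 and 21.4. No treated and untreated libraries overlapped. The rises were 0.75 ± 0.09 (adjusted p = 0.00018) in KO and 0.45 ± 0.06 (adjusted p = 3.8e-05) in WT.

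U2OS KO libraries went from 19.2, 20.5 and 20.6 to 37.7, 33.8 and 37.4 CPM of PLK3, and U2OS WT libraries from 23.9, 22.5 and 21.8 to 36.8, 36.05 and 35.6. The treated libraries lay above the untreated ones in both genotypes. The rises were 0.86 ± 0.06 (adjusted p = 5.8e-12) in KO and 0.68 ± 0.07 (adjusted p = 0.00018) in WT, or 0.71 ± 0.05 without untreated replicate 1. Treated U2OS cells of both genotypes overlapped at the top of the order, and untreated AID-DIvA cells of both overlapped at the bottom. PLK3 overlaps TCTEX1D4, on the opposite strand, which had 42 to 158 counts per library.

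**Figure D2:**
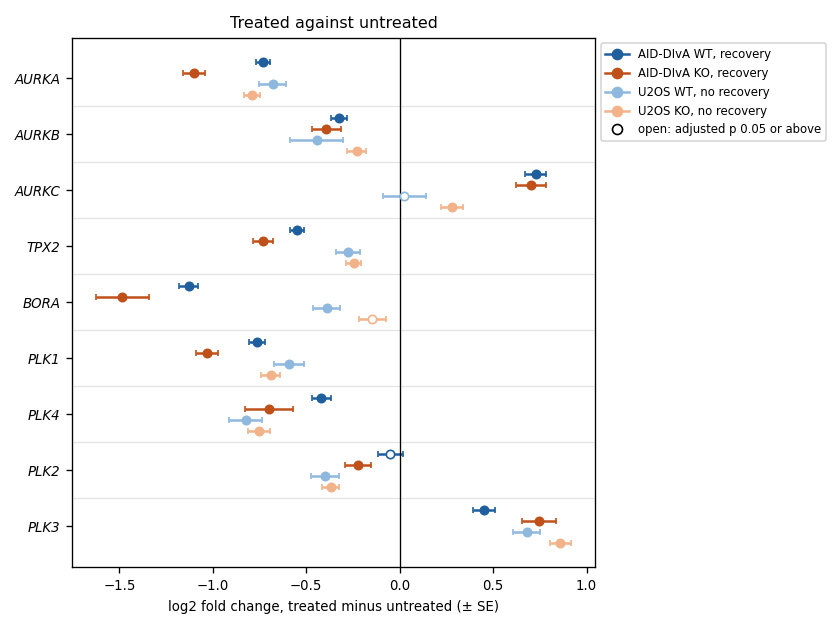
log2 fold change of treated against untreated cells (x axis) for each gene (y axis) in the 4 comparisons, with the SE as a bar and open points where the adjusted p was 0.05 or above. AURKA, TPX2, AURKB, PLK1 and PLK4 lie left of 0 in all 4, PLK3 lies right of 0 in all 4, and BORA is lowest in AID-DIvA KO cells at -1.49.

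The KO and WT cells were then set against each other at matched treatment. Without treatment, 4 of the 9 genes were lower in AID-DIvA KO than in WT cells and none was higher, where 18.1% and 18.6% of the 20441 genes tested were lower and higher, 36.7% in all. These were AURKA (-0.22 ± 0.04, adjusted p = 0.00064), BORA (-0.21 ± 0.05, 0.0069), PLK1 (-0.16 ± 0.04, 0.0066) and TPX2 (-0.15 ± 0.04, 0.0084). The TPX2 call was lost without untreated WT replicate 2 (adjusted p = 0.060) and the BORA call with all 4 groups in 1 fit (0.15). After treatment and recovery the same 4 genes were lower in KO cells and none was higher, where 11.1% and 12.6% of 20100 genes were lower and higher, 23.7% in all. The differences were -0.57 ± 0.06 for AURKA (adjusted p = 7.4e-05), -0.55 ± 0.14 for BORA (0.015), -0.42 ± 0.06 for PLK1 (0.00088) and -0.31 ± 0.06 for TPX2 (0.0024). The libraries of KO and WT cells did not overlap for any of these 4 genes in either state. In all, 6 of the 9 members were apart in untreated cells, among them AURKC and PLK4, which were not called, and 5 after recovery. The share of all genes that were apart was not counted, so being apart does not single out these 4. The BORA call after recovery was lost without recovered WT replicate 1 (adjusted p = 0.065). No member differed by more than 1 between genotypes, where 2.3% of all genes were lower and 2.27% higher by more than that in untreated and 2.26% and 2.5% in recovered cells.

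The other 5 genes gave smaller differences or differences with more spread. AURKB and AURKC differed by at most 0.08 on the log2 scale between AID-DIvA genotypes. PLK4 gave 0.08 ± 0.04 in untreated cells and -0.19 ± 0.13 after recovery, the latter called only without recovered KO replicate 3 (-0.32, adjusted p = 0.047), and PLK2 gave 0.03 ± 0.05 and -0.13 ± 0.08. PLK3 after recovery lay at 26.3 ± 3.58 CPM in KO and 21.7 ± 1.16 in WT cells, without overlap of the libraries, but 0.26 ± 0.09 did not pass (adjusted p = 0.076). It passed with no filter on low counts (0.031), with all 4 groups in 1 fit (0.026) and without recovered KO replicate 3 (0.027).

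In untreated U2OS cells none of the 9 genes was called between KO and WT by edgeR, where 15.2% of 20621 genes were (6.56% higher and 8.63% lower). By unadjusted p, PLK2 (0.22 ± 0.07, adjusted p = 0.062), PLK3 (-0.18 ± 0.07, 0.15) and PLK4 (0.21 ± 0.09, 0.17) were below 0.05. All genes were not counted at that unadjusted threshold. DESeq2 called 1, PLK2 (adjusted p = 0.013). This comparison rested on the library that stood apart, and without it 4 were called: AURKB (0.14 ± 0.04, adjusted p = 0.0032), PLK4 (0.14 ± 0.05, 0.011) and PLK2 (0.21 ± 0.04, 1.8e-05) higher and PLK3 (-0.14 ± 0.06, 0.039) lower in KO cells. The share of all genes called was then 41.1% (20.5% higher and 20.6% lower). AURKB changed sign, from -0.04 ± 0.14 with all libraries. By more than 1, 2.84% of all genes were lower and 1.42% higher, and no member.

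In treated U2OS cells 3 genes were higher in KO than in WT cells, PLK4 (0.29 ± 0.06, adjusted p = 0.00032), PLK2 (0.26 ± 0.05, 0.00017) and AURKB (0.18 ± 0.05, 0.0053), and 2 were lower, PLK1 (-0.17 ± 0.05, 0.0058) and AURKA (-0.12 ± 0.04, 0.032). Of the 21800 genes tested, 19.0% were higher and 19.0% lower, 37.9% in all. With all 4 U2OS groups in 1 fit, only PLK2 and PLK4 kept the call. AURKA lost it also with no filter on low counts (0.056) and without any 1 of 5 of the 6 libraries, at adjusted p between 0.071 and 0.13, and AURKB without treated KO replicate 3 (0.070). TPX2 (0.04 ± 0.04) and BORA (0.14 ± 0.07), which were lower in recovered AID-DIvA KO cells, did not pass here, and BORA passed without treated KO replicate 1 (0.21, adjusted p = 0.0074). No member differed by more than 1, where 2.18% of all genes were lower and 1.31% higher by more than that.

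**Figure D3:**
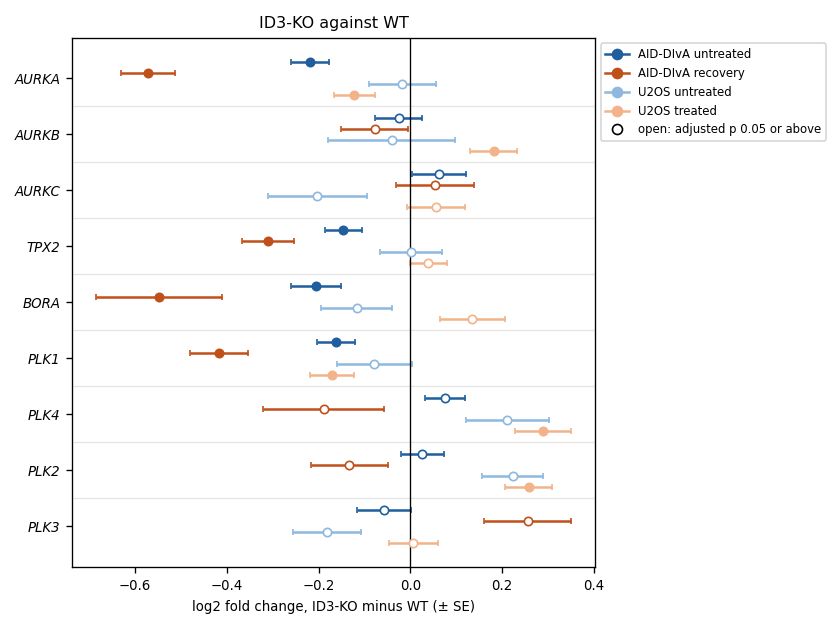
log2 fold change of ID3-KO against WT cells (x axis) for each gene (y axis) at matched line and treatment, with the SE as a bar and open points where the adjusted p was 0.05 or above. AURKA, TPX2, BORA and PLK1 lie furthest left in recovered AID-DIvA cells, at -0.57, -0.31, -0.55 and -0.42, whereas PLK2 and PLK4 lie right of 0 in U2OS cells.

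Whether the response itself differed between the genotypes was tested as an interaction, the KO response minus the WT response. In AID-DIvA cells this passed for AURKA alone, at -0.36 ± 0.07 (adjusted p = 0.013), where 1.21% of the 21265 genes tested passed, 0.451% of them lower. The fall of AURKA was thus larger in KO than in WT cells, but the call was lost without untreated WT replicate 1 (adjusted p = 0.05) or 3 (0.055). Without these libraries the difference itself was -0.36 and -0.35, and it lay between -0.39 and -0.33 over all libraries left out in turn. PLK1 gave -0.26 ± 0.07 (adjusted p = 0.090) and passed with DESeq2 (0.042) and without recovered KO replicate 1 (0.032). BORA gave -0.34 ± 0.15 (adjusted p = 0.39), TPX2 -0.17 ± 0.06 (0.26), PLK4 -0.27 ± 0.15 (0.52) and PLK3 0.30 ± 0.11 (0.26). For these 5 genes a difference between the responses was not called by edgeR with all libraries. By unadjusted p, AURKA, PLK1, TPX2, PLK3 and BORA were below 0.05 in AID-DIvA cells. The share of all genes at that unadjusted threshold was not counted, so no background stands beside these genes. In U2OS cells none of the 9 passed, where 2.15% of 22647 genes did (1.1% higher and 1.06% lower), none had an unadjusted p below 0.05, and DESeq2 also called 0. Without untreated WT replicate 1 the share of all genes was 9.03% and again none of the 9 was called. With all libraries, the values in U2OS cells ran from -0.11 ± 0.08 for AURKA to 0.26 ± 0.13 for AURKC. With each library left out in turn, AURKA lay between -0.15 and -0.079 and AURKC between 0.13 and 0.32.

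The responses of the 2 cell lines were compared in the same way, as the AID-DIvA response after recovery minus the U2OS response without recovery. In KO cells 4 genes were lower, BORA (-1.35 ± 0.16, adjusted p = 2.5e-06), TPX2 (-0.49 ± 0.07, 1.6e-05), PLK1 (-0.35 ± 0.09, 0.0020) and AURKA (-0.32 ± 0.07, 0.0013), and AURKC was higher (0.42 ± 0.10, 0.0023), where 27.7% of 21947 genes were lower and 24.8% higher, 52.5% in all. In WT cells BORA (-0.75 ± 0.09, adjusted p = 1.3e-05) and TPX2 (-0.28 ± 0.08, 0.0084) were lower, and AURKC (0.70 ± 0.13, 0.00093), PLK4 (0.40 ± 0.10, 0.0075) and PLK2 (0.34 ± 0.11, 0.024) were higher, where 21.7% of 22238 genes were lower and 20.5% higher, 42.2% in all. In each genotype 5 of the 9 members were called, a count near the 52.5% of all genes in KO and somewhat above the 42.2% in WT. By value, BORA and TPX2 had fallen more, and AURKC risen more, in the recovered AID-DIvA cells of both genotypes. Without untreated U2OS WT replicate 1, PLK1 (-0.25, adjusted p = 0.00067) and PLK3 (-0.27, 0.0054) joined the lower genes in WT cells, where 26.0% of all genes were lower and 26.0% higher. With each library left out in turn, the WT values lay between -0.78 and -0.71 for BORA and -0.30 and -0.25 for TPX2. They lay between 0.57 and 0.77 for AURKC, 0.35 and 0.47 for PLK4, and 0.26 and 0.40 for PLK2. PLK2 in WT cells was lost without untreated AID-DIvA WT replicate 1 (adjusted p = 0.060) or 2 (0.052), without treated U2OS WT replicate 2 (0.070) and with the replicate block (0.051). Recovery and cell line label cannot be told apart in these differences.

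**Figure D4:**
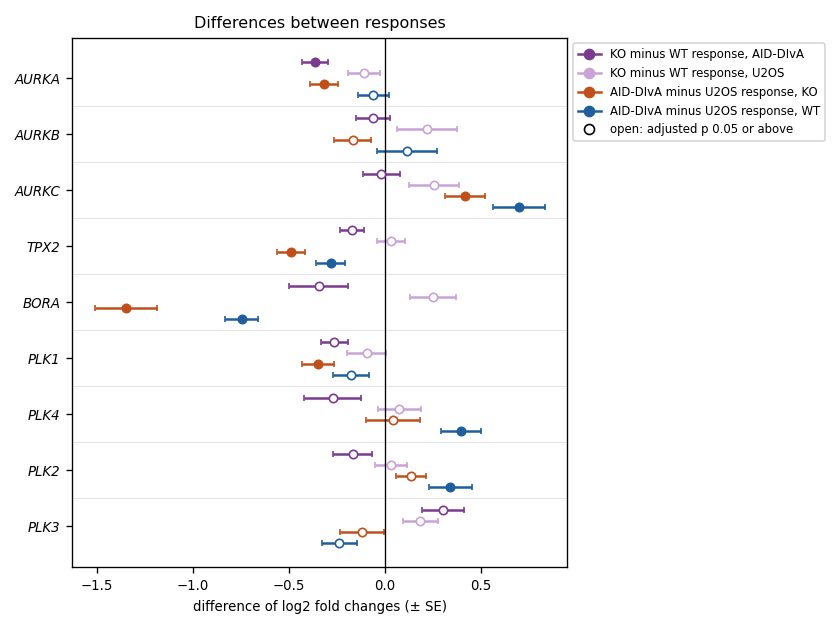
Difference between 2 log2 fold changes (x axis) for each gene (y axis), KO minus WT in each line and AID-DIvA minus U2OS in each genotype, with the SE as a bar and open points where the adjusted p was 0.05 or above. BORA lies furthest from 0, at -1.35 in KO and -0.75 in WT cells between the lines, and AURKA is the filled point of the KO minus WT difference, at -0.36 in AID-DIvA cells.

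Across the 24 libraries, with log2 CPM centred within each line, the genes most alike to each member were ranked by Pearson's r among 15593 genes averaging at least 1 CPM. The libraries share treatments and groups, so these values describe the pattern only. CCNB1 (0.996), KNSTRN (0.983) and PLK1 (0.981) were most alike to AURKA, and AURKA (0.981), STARD8 (0.978) and CCNB1 (0.978) to PLK1. HJURP (0.988), PIF1 (0.985) and KIF2C (0.984) were most alike to TPX2, KIF18A (0.979), SPDL1 (0.971) and CKAP2 (0.970) to BORA, and TACC3 (0.960), HMGN2P5 (0.933) and ETFB (0.932) to AURKB. WEE1 (0.977), ZZZ3 (0.977) and C5orf34 (0.976) were most alike to PLK4, UBR7 (0.963), CPSF2 (0.947) and CDC7 (0.938) to PLK2, GRINA (0.966), TRIB3 (0.964) and NRBP1 (0.961) to AURKC, and PSMB9 (0.981), CDK18 (0.978) and CGREF1 (0.971) to PLK3. Among the members, r was lowest between PLK4 and PLK3, at -0.966.

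The genes around these kinases were taken from 7 lists of 58 gene names (59 rows, since RBL1 names 2). In AID-DIvA KO cells 39 of the 59 rows fell, 3 rose and 17 did not pass, with a median of -0.50, against 19.9% and 20.2% of all genes and their median of -0.02. In AID-DIvA WT cells 40 fell, 5 rose and 14 did not pass (median -0.35), against 23.0% and 23.9% of all genes. In U2OS cells 38 fell and 9 rose in KO and 34 fell and 4 rose in WT (medians -0.32 and -0.31), against 34.0% and 35.8% of all genes in KO and 22.9% and 26.0% in WT cells. Without untreated replicate 1, 40 fell and 7 rose in WT cells, against 32.5% and 33.9% of all genes. Calls in either direction were made for 40.1%, 46.9%, 69.9% and 48.9% of all genes in AID-DIvA KO, AID-DIvA WT, U2OS KO and U2OS WT cells, and the counts of each list below are to be read against these shares. Counts without untreated replicate 1 are to be read against the 66.4% of all genes called then in U2OS WT cells.

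The chromosomal passenger list, the complex of Aurora B and the proteins that dock it at the centromere, fell as 7 of 7 in AID-DIvA cells of both genotypes (medians -0.86 in KO and -0.64 in WT) and as 5 of 7 in U2OS cells of both, in WT also without untreated replicate 1. SGOL2, a centromere protector, changed by -1.51 ± 0.21 (adjusted p = 0.00042) in AID-DIvA KO and by -1.06 ± 0.06 (1.6e-08) in WT cells. CDCA8, which encodes borealin, changed by -1.02 ± 0.06 (1.2e-06) and -0.82 ± 0.04 (3.7e-09). GSG2, the histone kinase haspin, had the smallest fall of the list in KO cells, -0.36 ± 0.07 (0.0028), against -0.35 ± 0.07 (0.00064) in WT. SGOL2 was the 1 member of the list that rose in U2OS KO cells (0.20 ± 0.05, adjusted p = 0.0024).

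Of the PLK1 partners and substrates, 11 of 12 fell in AID-DIvA KO cells (median -0.68), 10 fell and PKMYT1, an inhibitory kinase of mitotic entry, rose (0.23 ± 0.06, adjusted p = 0.0055) in WT (median -0.49), and 10 fell in U2OS cells of either genotype, with and without untreated WT replicate 1. KIF20A, a kinesin of the central spindle, changed by -1.39 ± 0.06 (adjusted p = 2.1e-07) in AID-DIvA KO and -1.23 ± 0.05 (6.9e-10) in WT cells, and CDC25C, the phosphatase that activates the mitotic cyclin-dependent kinase, by -1.20 ± 0.08 (3.1e-06) and -0.94 ± 0.06 (6.2e-08). CDC25C was not called in U2OS cells (0.11 ± 0.06 in KO and -0.0049 ± 0.07 in WT). FBXO5, the inhibitor of the anaphase-promoting complex (APC/C), changed by -0.40 ± 0.12 (adjusted p = 0.021) in AID-DIvA KO cells, whereas WT cells gave 0.06 ± 0.06 (0.43), and the difference between the 2 responses did not pass (adjusted p = 0.18).

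Aurora A partners fell as 6 of 10 in AID-DIvA KO and 7 of 10 in WT cells (medians -0.40 and -0.35), with none rising, and as 6 of 10 in both U2OS comparisons, where HMMR (0.14) and NEDD9 (0.12) rose in KO and none in WT, or as 8 of 10 in U2OS WT cells without untreated replicate 1. HMMR, a spindle protein, changed by -0.91 ± 0.16 (adjusted p = 0.0019) in AID-DIvA KO and -0.43 ± 0.07 (0.00019) in WT cells, CEP192, which recruits the kinase to centrosomes, by -0.79 ± 0.10 (0.00028) and -0.52 ± 0.04 (1.7e-07), and WDR62, a spindle pole protein, by -0.30 ± 0.07 (0.0061) and -0.23 ± 0.04 (0.00064). NEDD9, a scaffold that binds Aurora A and was named after its values were seen, was the only listed gene whose AID-DIvA response differed between genotypes (0.66 ± 0.11, adjusted p = 0.0058), where 0.762% of all genes were higher. It changed by -0.84 ± 0.08 in WT cells and gave -0.19 ± 0.07 in KO cells (adjusted p = 0.057).

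Among the centriole partners of PLK4, 4 of 6 fell in AID-DIvA cells of either genotype (medians -0.37 in KO and -0.24 in WT), and 3 of 6 in each U2OS comparison, with CEP63 rising in KO (0.37 ± 0.06), so that 4 of 6 were called in U2OS KO cells where 69.9% of all genes were. Without untreated replicate 1, 4 fell in U2OS WT cells and CEP63 rose (0.16 ± 0.06). STIL, which binds and activates PLK4, changed by -0.65 ± 0.11 (adjusted p = 0.0011) in AID-DIvA KO and -0.38 ± 0.04 (4.3e-06) in WT cells, but gave 0.09 ± 0.04 (0.083) and 0.0027 ± 0.08 (0.98) in U2OS KO and WT cells. CEP135 changed by -0.52 ± 0.11 (adjusted p = 0.0041) and CEP63 by -0.32 ± 0.07 (0.0066) in AID-DIvA KO cells.

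The APC/C list, the ubiquitin ligase arm that removes the Aurora kinases and PLK1 at mitotic exit, fell as 5 of 6 in AID-DIvA cells of both genotypes (medians -0.63 and -0.45), as 4 of 6 in U2OS KO, with UBE2S, the chain-elongating enzyme of APC/C, rising (0.86 ± 0.07), and as 3 of 6 in U2OS WT cells, or as 4 of 6, with UBE2S (0.79 ± 0.04) and CDC20 (0.17 ± 0.03) rising, without untreated replicate 1. CDC20, its mitotic activator, changed by -0.80 ± 0.06 (adjusted p = 7.1e-06) in AID-DIvA KO and -0.69 ± 0.04 (2.1e-08) in WT cells but gave 0.0092 ± 0.05 and 0.06 ± 0.10 in U2OS KO and WT cells. CDC27, a core subunit, changed by -0.80 ± 0.13 (adjusted p = 0.0011) and FZR1, the activator of late mitosis and G1, by -0.30 ± 0.09 (0.022) in AID-DIvA KO cells.

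The transcription list, the FOXM1, B-MYB and MuvB factors of late cell cycle promoters with pocket proteins and E2F4, fell as 5 of 10 rows in AID-DIvA cells of either genotype (medians -0.28 and -0.13), as 7 of 10 in U2OS KO, near the 69.9% of all genes called there, and as 6 of 10 in U2OS WT cells, or 7 without untreated replicate 1, near the 66.4% of all genes called then, with none rising. FOXM1 changed by -0.54 ± 0.06 (adjusted p = 0.00013) in AID-DIvA KO, -0.53 ± 0.05 (1.3e-06) in WT, -1.03 ± 0.04 (8.5e-16) in U2OS KO and -0.89 ± 0.08 (8.6e-05) in U2OS WT cells. LIN9, a MuvB subunit, changed by -0.53 ± 0.15 (0.019) and RBL2, a pocket protein, by -0.25 ± 0.08 (0.033) in AID-DIvA KO cells.

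The stress-response companions of PLK2 and PLK3 went in both directions, with 3 of 8 higher and 1 lower in AID-DIvA KO, 4 higher and 2 lower in AID-DIvA WT, 4 and 3 in U2OS KO, and 4 and 1 in U2OS WT cells, next to 40.1%, 46.9%, 69.9% and 48.9% of all genes called. Without untreated replicate 1, 4 were higher and 2 lower in U2OS WT cells, where 66.4% of all genes were called. Those higher were CDKN1A and GADD45A in all 4 comparisons, BTG2 in both AID-DIvA comparisons, MDM2 in AID-DIvA WT, and FOS and GADD45B in both U2OS comparisons. CDKN1A, the p53 target that inhibits cyclin-dependent kinases, rose by 0.94 ± 0.07 (adjusted p = 7.3e-06) in AID-DIvA KO, 1.21 ± 0.06 (4e-09) in AID-DIvA WT, 0.96 ± 0.05 (5.4e-14) in U2OS KO and 0.92 ± 0.10 (0.00019) in U2OS WT cells. BTG2, an antiproliferative p53 target, rose by 0.29 ± 0.06 (0.0055) and GADD45B changed by -0.64 ± 0.09 (0.00044) in AID-DIvA KO cells, and GADD45B rose by 0.52 ± 0.05 (1.1e-09) in U2OS KO cells.

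**Figure D5:**
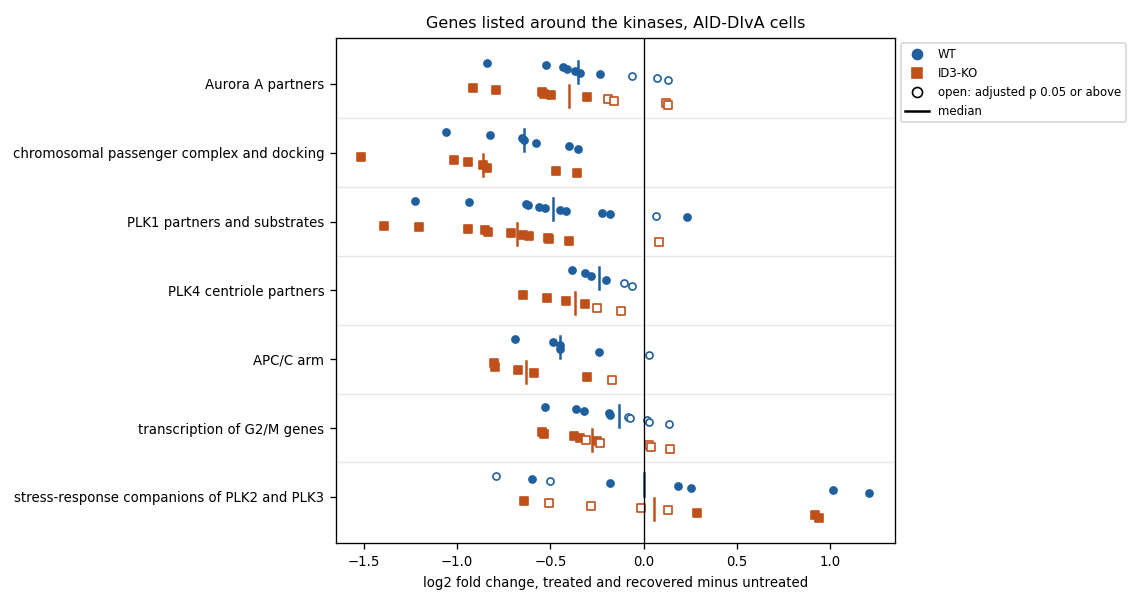
log2 fold change of recovered against untreated AID-DIvA cells (x axis) for every gene of the 7 lists (y axis), circles for WT and squares for ID3-KO cells, open where the adjusted p was 0.05 or above, with a line at each median. All genes of the chromosomal passenger list lie left of 0 in both genotypes, whereas the companions of PLK2 and PLK3 spread to both sides, from -0.64 to 0.94 in KO cells.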

How the data were processed

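RNA was sequenced in 24 libraries of cell lines (stranded total RNA, paired reads of 100 bp). Per the labels and methods, the authors used the Roddy workflow, with STAR alignment to hg19 (GRCh37) and featureCounts for counting. Their deposited tables give raw fragment counts for each gene and library, without normalization or pooling, from either strand and by strand. The methods name annotation v.29 lift 37, and tool versions are not given in the sources used here. Each library had its own table, with 0 columns from samples outside the series.

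The deposited counts from either strand were tested in R 4.3.3 with edgeR 4.0.16 (TMM, filterByExpr, robust quasi-likelihood fit, 2-sided, Benjamini-Hochberg adjustment over all genes tested). A gene was called at an adjusted p below 0.05, and "rose" and "fell" refer to calls. Pairwise comparisons used 6 libraries, differences between responses 12. SE is the log2 fold change divided by the root of F. CPM used TMM factors over all 24 libraries, and RPKM divided CPM by the exonic length in the tables. SDs and SEs measure the spread between the replicates of these libraries. The steps were tested on simulated counts, in which the 6-library fit made more false calls than its threshold sets and smaller differences between responses were often missed. Correlations used log2(CPM + 0.5).

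All 9 members were described. In each list the 2 genes with the lowest and the 1 with the highest fold change among those called in AID-DIvA KO cells were named, and for each member the 3 genes most alike. Members and lists were chosen with earlier results of these data known. Alternatives were DESeq2 1.42.0, its size factors in edgeR, other count filters (none, or at least 10 counts in every library), reverse-strand counts, the replicate number as a block, all 4 groups of a line in 1 fit, a log2 threshold of 1, and each library left out. PECAM1 was not analysed here. Promoters came from RefSeq (GRCh38.p14).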

Additional observations from a re-analysis of the deposited data

Results flagged for a closer look

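Each result here is a difference between 2 responses to mocetinostat that passed edgeR's quasi-likelihood test of the difference itself (log2 units, adjusted over all genes tested). Between genotypes in AID-DIvA cells, the response of AURKA was lower in ID3-KO than in WT cells by -0.36 ± 0.07 (SE, adjusted p = 0.013). Between recovered AID-DIvA and U2OS cells without recovery, in KO cells, the response was lower for AURKA (-0.32 ± 0.07), TPX2 (-0.49 ± 0.07), BORA (-1.35 ± 0.16) and PLK1 (-0.35 ± 0.09) and higher for AURKC (0.42 ± 0.10). In WT cells it was lower for TPX2 (-0.28 ± 0.08) and BORA (-0.75 ± 0.09) and higher for AURKC (0.70 ± 0.13), PLK4 (0.40 ± 0.10) and PLK2 (0.34 ± 0.11). The adjusted p-values lay between 2.5e-06 and 0.0023 for KO and between 1.3e-05 and 0.024 for WT cells. Between the lines 5 of the 9 members passed in each genotype, where 52.5% of all genes passed in KO and 42.2% in WT cells. Recovery and cell line label cannot be told apart there. Between AID-DIvA genotypes 1.21% of all genes passed, and the AURKA call was lost without untreated WT replicate 1 or 3. PLK2 in WT cells was lost without untreated AID-DIvA WT replicate 1 or 2, without treated U2OS WT replicate 2 and with the replicate block.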

How the results depend on the processing

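Counts of called members were within 1.5 times the reported count in 77 of 88 values under other settings and in 91 of 96 with a library left out. A log2 threshold of 1 left 3 members in AID-DIvA KO and 1 in AID-DIvA WT treatment, and 0 in both U2OS treatments, in both AID-DIvA genotype comparisons and in treated U2OS genotypes. Untreated U2OS genotypes gave 1 with DESeq2 and 1 with 4 groups in 1 fit, treated U2OS genotypes 2 with 4 groups in 1 fit, and the AID-DIvA interaction 2 with DESeq2. With each library left out, untreated U2OS genotypes gave 0 to 4, treated U2OS genotypes 3 to 5 (3 without treated KO replicate 3) and the AID-DIvA interaction 0 to 2 (0 without untreated WT replicate 1 or 3, 2 without recovered KO replicate 1).

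Single members kept direction and call in 701 of 720 values under other settings and in 805 of 864 with a library left out. The AURKC interaction in AID-DIvA cells became 0.0018 with no filter and 0.0009 with at least 10 counts. Differences that crossed 0 with a library left out, none of them called with all libraries, ran from -0.14 to 0.0036 (PLK2, AID-DIvA WT treatment), -0.046 to 0.15 (AURKC, U2OS WT treatment), -0.0017 to 0.063 (PLK2) and -0.084 to 0.005 (AURKB, untreated AID-DIvA genotypes), -0.027 to 0.12 (AURKC, recovered AID-DIvA genotypes), -0.045 to 0.028 (AURKA), -0.14 to 0.14 (AURKB) and -0.015 to 0.030 (TPX2, untreated U2OS genotypes), -0.017 to 0.053 (PLK3, treated U2OS genotypes), -0.093 to 0.042 (AURKC) and -0.12 to 0.008 (AURKB, AID-DIvA interaction), -0.017 to 0.061 (PLK2, U2OS interaction), -0.077 to 0.19 (PLK4, between lines in KO) and -0.073 to 0.22 (AURKB, between lines in WT). The causes were not tested.

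Same-numbered replicates did not deviate together: the correlation of their deviations from the group means ran from -0.426 to 0.306 in AID-DIvA cells (6 of 18 above 0.1) and from -0.061 to 0.364 in U2OS cells (5 of 18), so the numbers were not taken to pair the samples. In 1 of the 12 pairs of groups, untreated and treated U2OS KO cells, all 3 libraries correlated best with their own number. With the replicate number as a block, 3 member calls changed: PLK2 was lost in AID-DIvA KO treatment (-0.23, adjusted p = 0.072) and between the lines in WT (0.34, 0.051), and BORA passed in U2OS KO treatment (-0.15, 0.024).

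The designs have 3 libraries a group. A difference of members that missed the threshold is not shown to be absent, and the conflict between titles and treatment field sets the sign of every AID-DIvA treatment difference.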

Other observations

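Within a library the members can be set against each other per length, as ratios of RPKM, with no test. TPX2 stood at 1.65 ± 0.00214 times AURKA (mean ± SD, n = 3) in untreated AID-DIvA WT cells and at 2.25 ± 0.143 times in recovered AID-DIvA KO cells, and at 2.74 ± 0.0700 times in treated U2OS KO cells. AURKB stood at 4.24 ± 0.0851 times AURKC in untreated and 2.04 ± 0.0837 times in recovered AID-DIvA WT cells, and at 3.98 ± 0.120 and 1.87 ± 0.0643 times in AID-DIvA KO cells. PLK2 stood at 5.26 ± 0.322 times PLK3 in untreated AID-DIvA WT cells and at 1.09 ± 0.0718 times in treated U2OS WT cells. The processed pseudogene AURKAPS1 (chromosome 1, 220440048 to 220441259) had 17 to 44 counts per library, against 3735 to 17672 for AURKA.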
